A study of Mus musculus with 18 samples.

Results

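Genes encoding subunits of the Na,K-ATPase, the sodium pump of animal cells and the target of ouabain, were followed in mouse liver. They are the beta subunit genes Atp1b1, Atp1b2 and Atp1b3 and the FXYD regulator genes Fxyd1, Fxyd2 and Fxyd5. They were picked by symbol, and all 6 were found among the 37620 genes of the count table as 6 Ensembl identifiers. RNA was sequenced from flash-frozen livers of 18 female mice, in 3 groups of 6. Old ouabain mice, labelled 24 months of age, received 4 ouabain treatments per week at 1 mg/kg. These rounds alternated with 2 weeks of rest over a 12-week course, and livers were collected 3 days after the last round. Old vehicle mice of the same age received vehicle, labelled saline, and young mice of 7 weeks are labelled as having no treatment. Age and handling therefore cannot be told apart in comparisons with young mice, and the sources used here do not give the strain.

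The pump uses ATP to move sodium out of the cell and potassium in, and the gradients it builds drive the uptake of bile acids and amino acids into hepatocytes. Each pump joins a catalytic alpha subunit, which binds ouabain, to a beta subunit, a glycoprotein needed for folding and delivery to the plasma membrane. A small FXYD protein can join them and tune the affinity for ions. Ouabain is a plant cardiac glycoside that blocks the pump. Rodent pumps with the most widespread form of the alpha subunit are known to bind it more weakly than human ones.

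Libraries held 4201251 to 11113307 counts, with old ouabain replicate 5 the shallowest and all others at 7527846 or more. The liver label matched its markers, since 12 hepatocyte genes summed to between 105415 and 173788 CPM (counts scaled with TMM factors to a library of 1000000) in every library. Old vehicle replicate 4 stood apart, with the highest sums of macrophage markers (1736 CPM), leukocyte markers (528 CPM) and erythroid markers (2605 CPM) of all libraries. Its sum of lymphocyte markers (25.6 CPM) was instead the lowest of the old vehicle group, which reached 46.4 CPM. Old vehicle replicate 3 was next for erythroid markers (2233 CPM), and the other 16 libraries had at most 1249 CPM.

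The promoters of Atp1b1 and Fxyd5 are shown because these subunit genes passed the test between young and old vehicle livers. Fxyd5 passed as higher and Atp1b1 as lower, the latter not in every fit. Each run is the 250 bases before the RefSeq start of the gene on build GRCm38.p6, which is not the mm9 build used by the authors. It is written 5′ to 3′ along the gene, with motif matches in capitals. Both genes lie on the minus strand, Atp1b1 at chr1:164458356-164458605 and Fxyd5 at chr7:31042332-31042581.

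Atp1b1: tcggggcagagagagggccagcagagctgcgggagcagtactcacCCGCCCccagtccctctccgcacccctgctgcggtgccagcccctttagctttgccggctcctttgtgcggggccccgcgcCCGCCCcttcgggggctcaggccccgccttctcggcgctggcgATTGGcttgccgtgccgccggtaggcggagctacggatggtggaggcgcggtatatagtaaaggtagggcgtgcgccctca

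Fxyd5: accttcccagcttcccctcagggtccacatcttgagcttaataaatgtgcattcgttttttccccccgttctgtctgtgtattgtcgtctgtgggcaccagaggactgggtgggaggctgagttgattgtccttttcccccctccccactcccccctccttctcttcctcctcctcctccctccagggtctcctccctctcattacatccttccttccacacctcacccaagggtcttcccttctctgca

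Both strands were searched for the GC box GGGCGG, the CCAAT box CCAAT, the TATA box TATAA, the E-box CACGTG, the AP-1 site TGACTCA and the cyclic AMP response element TGACGTCA. Atp1b1 held 2 GC boxes and 1 CCAAT box, all read on the reverse strand, and 70.4% of its window was G or C. Fxyd5 held none of the 6 motifs, in a window with 55.6% G or C. Of 32851 promoter windows of the same length, 32.7% held a GC box and 33.8% a CCAAT box, and their median G and C content was 52.4%. Windows for 4 of the 6 subunit genes were found in the table. The matches describe these letters only.

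Fxyd1 was the most abundant of the subunit transcripts per length and Fxyd5 the least abundant of the 4 that could be tested. On a scale of CPM per kilobase of exon, young livers had 84.3 to 103 for Fxyd1, 18.3 to 24.6 for Atp1b1, 12.6 to 14.3 for Atp1b3 and 0.593 to 0.928 for Fxyd5. In young livers these 4 ranges did not overlap. Fxyd1 was highest and Fxyd5 lowest of the 4 in all 18 libraries. Atp1b1 exceeded Atp1b3 per kilobase in 6 of 6 young, 3 of 6 old vehicle and 4 of 6 old ouabain livers, so these neighbours could not be ordered in old liver. With the longest coding transcript as the length the same order and the same numbers of libraries were found, although Fxyd1 then ran from 297 to 365 in young livers. By the median coding transcript Atp1b1 is instead shorter than Atp1b3 (1604 against 1994 bases), which would raise Atp1b1 against Atp1b3. Libraries were not counted with that length, so the order of this pair in old liver depends on the length chosen. Gene lengths are from a GRCm38 annotation, since no source used here gives the annotation the authors counted with.

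**Figure D1:**
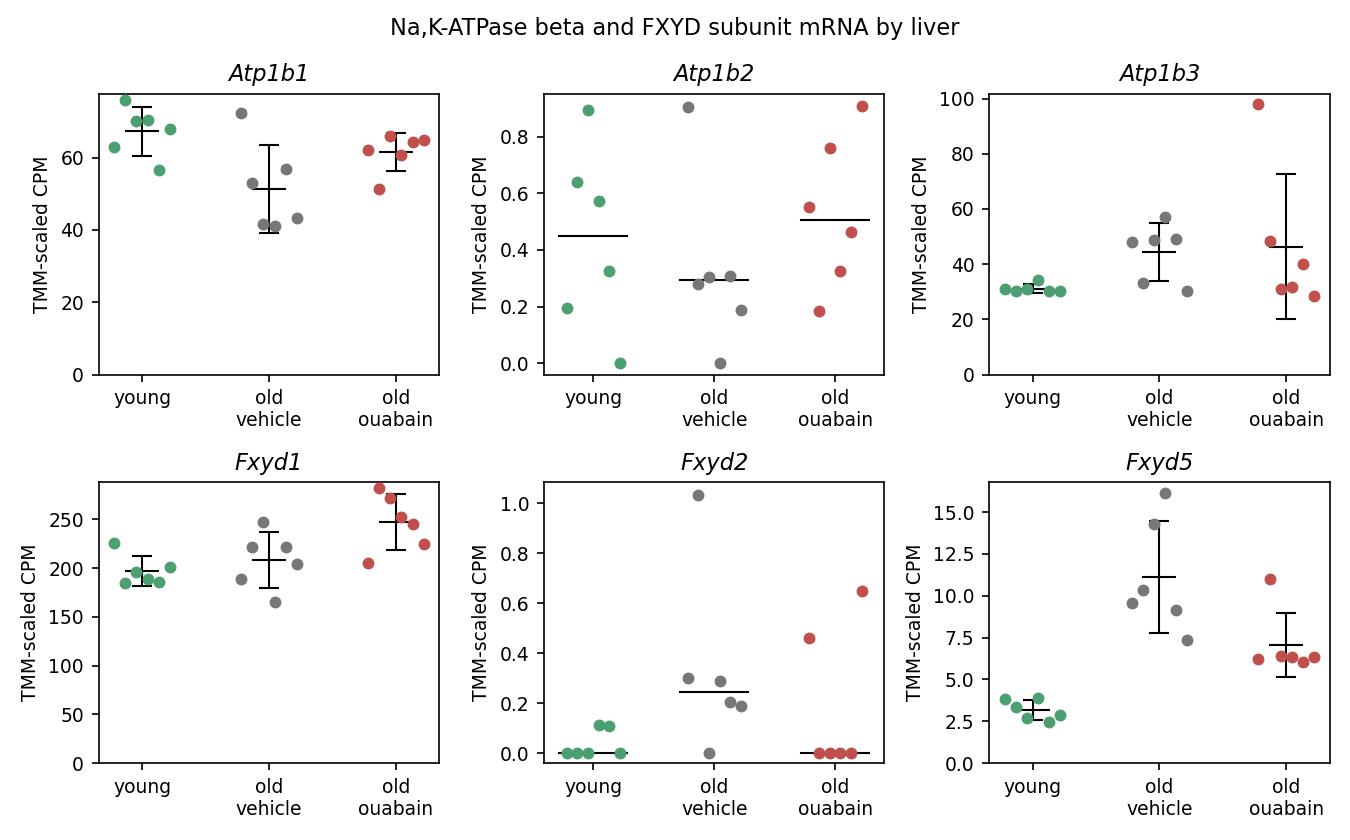
TMM-scaled CPM (vertical axes) of the 6 subunit genes in each liver, by group (6 points each). Bars show the mean and SD, or the median alone for Atp1b2 and Fxyd2. The 6 young livers lay at 2.49 to 3.89 CPM for Fxyd5, below all old livers, and 1 old ouabain liver reached 97.9 CPM for Atp1b3.

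How the pump genes differ between young and old mice, which also differ in handling, was read from old vehicle against young livers. Of the 4 subunit genes with enough counts to test, 2 passed, Fxyd5 as higher and Atp1b1 as lower. Over all 14226 genes tested in that comparison 19.2% changed at an edgeR adjusted p below 0.05 (10.9% higher and 8.32% lower).

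Among the beta subunits, Atp1b1 (ENSMUSG00000026576) encodes the isoform found in most epithelia. It had 56.5, 69.0 and 75.9 CPM in young livers (lowest, median and highest of 6), against 41.0, 48.1 and 72.3 CPM in old vehicle livers. The ranges overlapped, with replicate 1 the highest of the old vehicle group, while 4 of 6 old vehicle livers were below all young ones. Atp1b1 went from 67.3 ± 6.73 to 51.3 ± 12.2 CPM (SD, n = 6 each), which is -0.39 on the log2 scale (SE 0.12, adjusted p = 0.0232 by edgeR). It no longer passed when old vehicle replicate 3 (adjusted p = 0.0607) or 4 (0.0527) was left out, in the fit of only these 12 libraries (0.0603), or with both old vehicle replicate 4 and the shallow old ouabain replicate 5 left out (0.0639). Of 12 hepatocyte markers, 5 fell and 1 rose between the same groups (median log2 fold change -0.26, against -0.01 over all genes tested), and none was at 0. Their sum was 119986 to 173788 CPM in young and 105415 to 155305 CPM in old vehicle livers. Old vehicle replicate 4 had the highest sum of its group and the lowest Atp1b1 (41.0 CPM). Old vehicle replicate 3 had the lowest sum, with Atp1b1 at 41.5 CPM. There were 0.000360 to 0.000584 Atp1b1 counts per hepatocyte marker count in young and 0.000264 to 0.000553 in old vehicle livers, and these ranges overlapped. On the opposite strand Atp1b1 overlaps Nme7 in the GRCm38 annotation. Nme7 held 449 counts over all 18 libraries together. Atp1b1 held 3863 counts over the 6 young, 3134 over the 6 old vehicle and 3173 over the 6 old ouabain libraries. The strand setting of the counting is not given, so reads of the pair cannot be told apart.

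Atp1b3 (ENSMUSG00000032412), a widely expressed beta isoform, was even among young livers, at 30.1, 30.7 and 34.2 CPM. In old vehicle livers it had 30.3, 48.5 and 57.3 CPM, and 4 of 6 were above all young livers. The remaining old vehicle livers lay within the young range. The log2 fold change of 0.51 (SE 0.26) did not pass (edgeR adjusted p = 0.18). It did in the fit of these 12 libraries alone (0.52, adjusted p = 0.0175) and without old ouabain replicate 1 (0.52, adjusted p = 0.0185), a library that belongs to neither group but enters the shared estimate of the spread.

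The balance of both beta transcripts was read as a ratio of counts within each library, which does not depend on scaling. There were 0.397, 0.466 and 0.537 Atp1b3 counts per Atp1b1 count in young livers, and 0.629, 0.782 and 1.40 in old vehicle livers. These ranges did not overlap. Old ouabain livers had 0.442, 0.574 and 1.58 and overlapped both groups. On the log2 scale the means were -1.10 ± 0.151 in young, -0.21 ± 0.475 in old vehicle and -0.55 ± 0.711 in old ouabain livers (SD, n = 6 each). The ratio is given as a description with no test. The share of gene pairs whose ratios separate in this way was not computed, while 7.19% of single genes tested separated between young and old vehicle livers.

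Atp1b2 (ENSMUSG00000041329) encodes a beta isoform first known as an adhesion molecule of glia. It had 0 to 9 counts in any library, with 26 counts over the young, 20 over the old vehicle and 27 over the old ouabain livers. It was too low to test, and a difference was not detectable at this depth. It was at 0 in young replicate 6 and old vehicle replicate 4, where 0 counts allow up to 3, or 0.360 and 0.299 per 1000000 counts of the unscaled library, for counting error only.

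**Figure D2:**
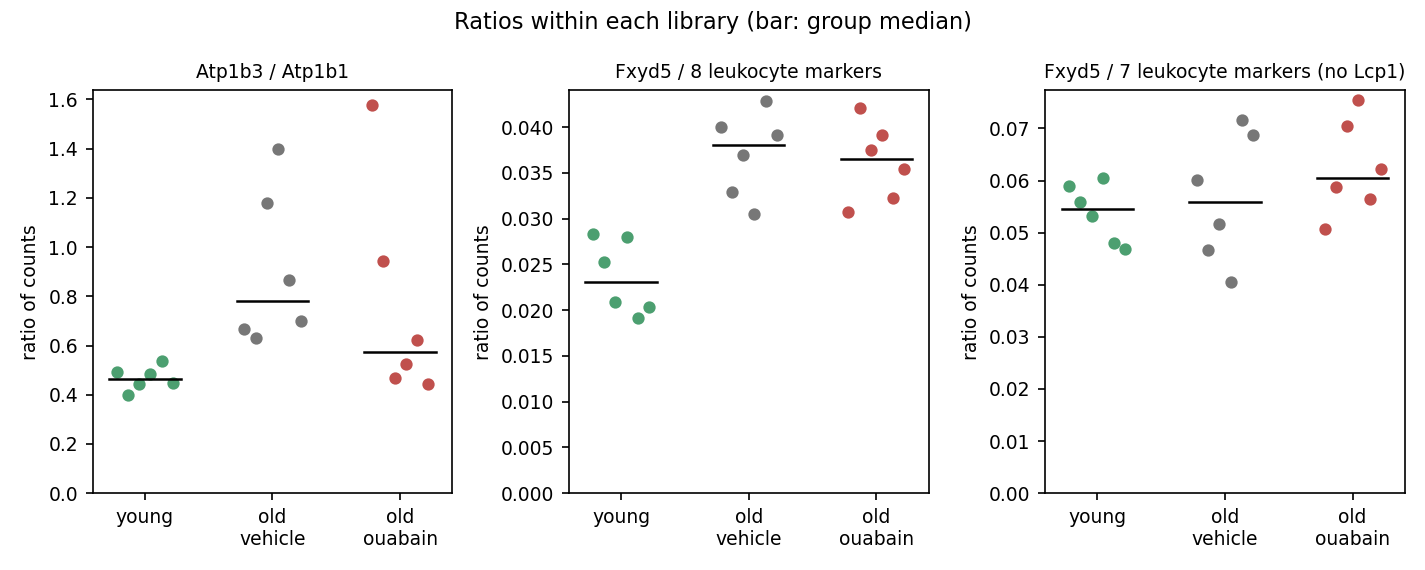
Ratio of counts within each library (vertical axes) for Atp1b3 over Atp1b1, Fxyd5 over 8 leukocyte markers, and Fxyd5 over 7 of them without Lcp1, by group (6 points each, bar at the median). Young and old vehicle livers do not overlap for Atp1b3 over Atp1b1, and all 3 groups overlap for Fxyd5 over the 7 markers.

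Among the FXYD regulators, Fxyd5 (ENSMUSG00000009687) encodes dysadherin, a FXYD protein with a long extracellular part that is known to modulate the pump and to reduce cell adhesion. It had 2.49, 3.12 and 3.89 CPM in young livers and 7.33, 9.94 and 16.1 CPM in old vehicle livers. Every old vehicle liver was above every young liver, a separation in this direction seen for 4.59% of all genes tested (2.6% in the other and 7.19% in either direction). Fxyd5 rose from 3.19 ± 0.596 to 11.1 ± 3.36 CPM (SD, n = 6 each), or by 1.80 on the log2 scale (SE 0.20, adjusted p = 9.62e-06 by edgeR). Without 1 library at a time the log2 fold change was 1.66 to 1.90, and it passed in 18 of 18 such fits.

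Markers of white blood cells moved with Fxyd5. All 8 leukocyte markers rose between young and old vehicle livers (median log2 fold change 1.84, against -0.01 over all genes tested), and none of them was at 0. Their summed level was 129 to 141 CPM in young, 188 to 528 CPM in old vehicle and 161 to 261 CPM in old ouabain livers. Of the macrophage markers 8 of 10 rose, and of the lymphocyte markers 6 of 9 tested. None of 6 erythroid markers tested passed. In whole liver, more cells of a type and more RNA per cell cannot be told apart.

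Set against the 8 leukocyte markers, there were 0.0191 to 0.0283 Fxyd5 counts per marker count in young, 0.0305 to 0.0428 in old vehicle and 0.0307 to 0.0421 in old ouabain livers. Young livers lay below both old groups, and the old groups overlapped. Lcp1, an actin-bundling protein of leukocytes, held 52.0 to 60.9% of the marker sum in young livers and 24.7 to 43.1% in old vehicle livers. Without it, a step chosen after these values were seen, the ratio was 0.0468 to 0.0605 in young, 0.0405 to 0.0716 in old vehicle and 0.0508 to 0.0755 in old ouabain livers. All 3 groups then overlapped. Set against 7 endothelial markers the ratio was 0.0151 to 0.0245 in young and 0.0463 to 0.0941 in old vehicle livers, with no overlap. None of these markers passed the test between these groups. Their sum was 149 to 195 CPM in young and 138 to 203 CPM in old vehicle livers. This ratio therefore repeats the separation of Fxyd5 itself and cannot speak to the part of blood cells. Against stellate cell markers the ratio was 0.00503 to 0.0106 in young and 0.0134 to 0.0349 in old vehicle livers. Against bile duct markers it was 0.0282 to 0.0576 and 0.0630 to 0.353, with no overlap in either. Of the stellate cell markers 1 of 10 passed between these groups, and of the bile duct markers 1 of 7 tested. Both ratios therefore largely repeat the separation of Fxyd5 itself and cannot speak to the part of blood cells either. Against Lcp1 alone the ratio was 0.0318 to 0.0544 in young and 0.0907 to 0.130 in old vehicle livers, again apart. Against macrophage markers it was 0.00882 to 0.0129 in young and 0.00928 to 0.0227 in old vehicle livers, and against lymphocyte markers 0.346 to 0.529 (median 0.468) and 0.206 to 0.629 (median 0.256), with overlap in both. Among the leukocyte, macrophage and lymphocyte lists, whether the Fxyd5 ratio was higher in old vehicle livers thus depended on the list. The part of blood cells in the result was not tested beyond these ratios.

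**Figure D3:**
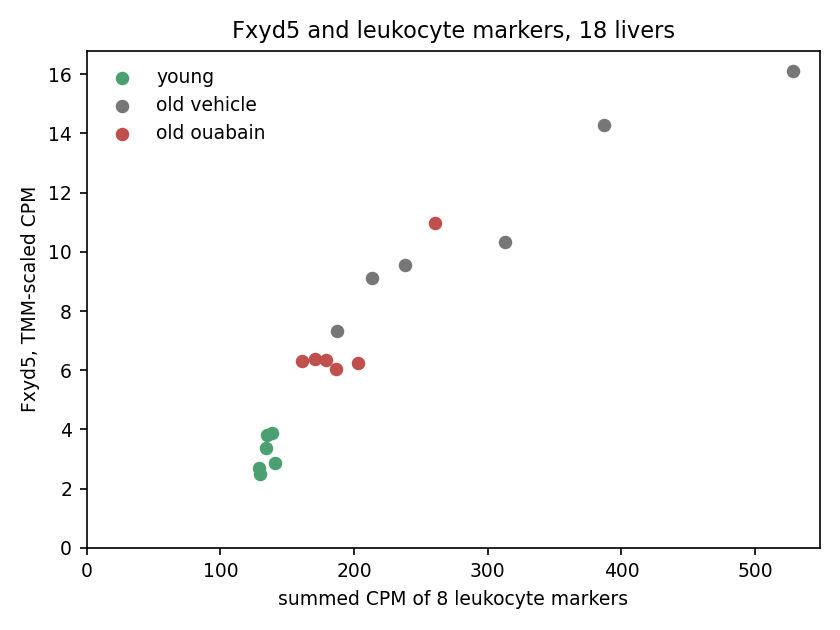
Fxyd5 (vertical axis, TMM-scaled CPM) against the summed CPM of 8 leukocyte markers (horizontal axis), 1 point per liver, coloured by group. The young livers sit together at 129 to 141 CPM of markers, and old vehicle replicate 4 lies farthest out at 528 CPM of markers and 16.1 CPM of Fxyd5.

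Fxyd1 (ENSMUSG00000036570) encodes phospholemman, a pump regulator best known from heart and skeletal muscle, where kinases phosphorylate it. It had 184, 192 and 226 CPM in young livers and 165, 213 and 247 CPM in old vehicle livers, with overlapping ranges. The log2 fold change was 0.08 (SE 0.10, approximate 95% interval -0.11 to 0.27, edgeR adjusted p = 0.618). The 5 smooth muscle markers summed to 9.23 to 24.1 CPM in young and 13.1 to 34.5 CPM in old vehicle livers, and none of the 4 tested passed.

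Fxyd2 (ENSMUSG00000059412) encodes the gamma subunit, best known from kidney tubules. It had 2 counts over the 6 young livers, 21 over the 6 old vehicle livers and 10 over the 6 old ouabain livers, and 11 of the old vehicle counts were in replicate 2. It was too low for the filter on low counts. With no filter its adjusted p by edgeR was 0.0705 for old vehicle versus young. The 8 bile duct markers, of epithelium in which Fxyd2 is also known, summed to 58.6 to 95.2 CPM in young and 40.5 to 145 CPM in old vehicle livers. Their part in the Fxyd2 counts was not tested.

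The comparison of old ouabain with old vehicle livers asks whether a drug that blocks the pump was followed by a change in pump transcripts. None of the 4 subunit genes tested passed by edgeR, where 1.84% of all genes changed (0.991% higher and 0.851% lower). At an unadjusted p below 0.05 there were 3, Fxyd5, Fxyd1 and Atp1b1, where 20.1% of all genes tested were below it. The CPM ranges of the old groups overlapped for all 4, where they did not for 2.05% of genes tested (1.12% higher and 0.928% lower). By DESeq2 Fxyd5 passed alone (adjusted p = 0.0461).

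Fxyd5 had 6.04, 6.33 and 10.98 CPM in old ouabain livers. All but replicate 2 lay within 6.04 to 6.39 CPM, below every old vehicle liver, and replicate 2 was inside the old vehicle range. The log2 fold change was -0.64 (SE 0.19, edgeR adjusted p = 0.0771), from 11.1 ± 3.36 to 7.05 ± 1.93 CPM (SD, n = 6 each). It passed as lower without old ouabain replicate 2 (-0.83, adjusted p = 0.029) or old vehicle replicate 6 (-0.74, adjusted p = 0.03), with quality weights (-0.63, adjusted p = 0.0277) and with 1 surrogate variable (-0.73, adjusted p = 0.0277). Replicate 2 also had the highest leukocyte sum of its group, 261 CPM, where the others had 161 to 203 CPM. Of the 8 leukocyte markers only Ptprc, encoding the pan-leukocyte phosphatase CD45, passed as lower in this comparison, and all 8 had negative fold changes with a median of -0.85 on the log2 scale. The part of leukocytes in the Fxyd5 difference was not tested beyond the ratios above, which overlapped between the old groups.

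Atp1b1 had 51.3, 63.2 and 66.0 CPM in old ouabain livers. All 6 were above the old vehicle median, yet none was above the highest old vehicle liver. The log2 fold change of 0.26 (SE 0.12) did not pass (edgeR adjusted p = 0.221), and it stayed between 0.20 and 0.38 without 1 library at a time, with adjusted p of 0.0616 to 0.369.

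Fxyd1 had 205, 249 and 282 CPM in old ouabain livers, and 3 of 6 were above all old vehicle livers. The log2 fold change was 0.25 (SE 0.10, edgeR adjusted p = 0.162), which did not pass here or in any of 18 fits without 1 library.

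Atp1b3 had 28.6, 36.0 and 97.9 CPM in old ouabain livers. The spread rested on replicate 1, with 1068 counts, where the other 5 libraries reached at most 48.4 CPM. The log2 fold change was 0.07 (SE 0.25, edgeR adjusted p = 0.912), and without replicate 1 it was -0.31 (adjusted p = 0.24). Its sign also turned without old vehicle replicate 2 (-0.0088) or 6 (-0.030), so no direction is given. In the same library Atp1b1 was at 62.1 CPM and Fxyd5 at 6.23 CPM, both within the range of the other 5.

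**Figure D4:**
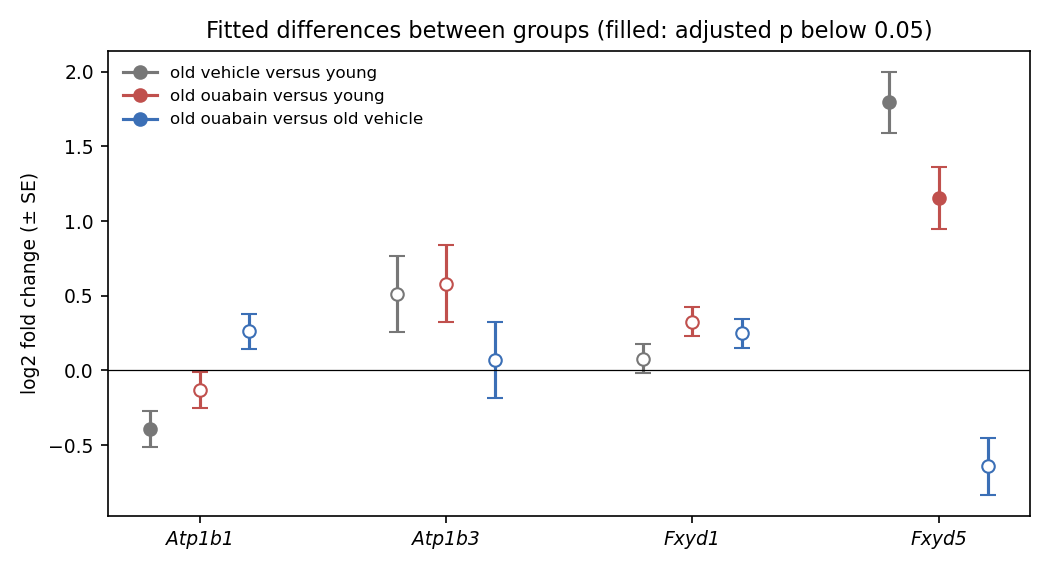
Fitted log2 fold change (vertical axis, ± SE) of the 4 subunit genes tested, for the 3 pairs of groups, from 1 edgeR fit of 18 libraries. Filled points have an adjusted p below 0.05: Fxyd5 in both old groups against young (1.80 and 1.15) and Atp1b1 in old vehicle against young (-0.39).

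Old ouabain livers were also set against young livers, with the same young libraries as in the first comparison, so these results are not independent of one another. Of the 4 genes tested 1 passed, Fxyd5, where 1.12% of all genes changed (0.738% higher and 0.387% lower). All 6 old ouabain livers were above all young livers for Fxyd5, as for 1.48% of genes tested (0.717% separated as lower, 2.19% in either direction), and the difference was 1.15 on the log2 scale (SE 0.21, adjusted p = 0.0117 by edgeR). Side by side, Fxyd5 stood at 3.47-fold of the young level in old vehicle and 2.23-fold in old ouabain livers. The difference between these folds is the comparison of the old groups above, which did not pass.

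Atp1b1 differed from young by -0.13 in old ouabain livers (SE 0.12, edgeR adjusted p = 0.619) and by -0.39 in old vehicle livers. For Atp1b3 the values were 0.58 (SE 0.26, adjusted p = 0.269) and 0.51. Fxyd1 was 0.33 above young in old ouabain livers (SE 0.10, adjusted p = 0.102), against 0.08 in old vehicle livers. All 6 old ouabain livers were above the young median for Fxyd1 and 4 were above all young livers, and it passed without young replicate 1 (0.37, adjusted p = 0.0418) and with quality weights (0.34, adjusted p = 0.0251).

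Likeness to other genes over the 18 libraries was the root mean square difference between log2 CPM profiles, each centred on its own mean, among 9413 genes. For Fxyd5, whose own profile had a root mean square of 0.77 around its mean, the nearest were Sh3bgrl3 (0.17), Prex1 (0.22) and Cd52 (0.24). Sh3bgrl3 encodes a small thioredoxin-like protein, Prex1 an exchange factor for the GTPase Rac, and Cd52 a glycoprotein on the surface of leukocytes. Sh3bgrl3 was at 5.50 ± 1.48 CPM in young, 18.5 ± 7.38 CPM in old vehicle and 12.4 ± 2.26 CPM in old ouabain livers (SD, n = 6 each). For Atp1b1, with a root mean square of 0.26, the nearest were Dnajc1 and Gsap (0.15 and 0.16) and Erlin1 (0.16). These distances are closer to the spread of Atp1b1 itself than those of the Fxyd5 neighbours are to the spread of Fxyd5. Dnajc1 encodes a co-chaperone of the endoplasmic reticulum membrane and Erlin1 a lipid raft protein of the same membrane.

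Other genes that work with the pump were taken from lists written from general knowledge. The other FXYD genes listed, Fxyd3, Fxyd4, Fxyd6 and Fxyd7, had too few counts to test.

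Of 25 sodium-coupled transporters tested, 2 rose and 1 fell between young and old vehicle livers, where 19.2% of all genes changed. The 3 became 5 without young replicate 4 and 6 without old vehicle replicate 6, and 5 with DESeq2 or quality weights. The glutamine transporter Slc1a5 went from 3.61 ± 1.24 to 7.90 ± 3.05 CPM (log2 fold change 1.12, edgeR adjusted p = 0.00257) and the nucleoside transporter Slc28a2 rose by 1.61 (adjusted p = 0.00876). The sodium and proton exchanger Slc9a8 fell by 0.31 on the log2 scale (adjusted p = 0.0128). Between ouabain and vehicle 1 fell, beside 0.851% of all genes tested. It was Slc38a2, a sodium-coupled carrier of neutral amino acids, from 174 ± 44.8 to 96.9 ± 13.9 CPM (-0.84, edgeR adjusted p = 0.0217). None of the list passed there without old ouabain replicate 4 or 6. None passed between old ouabain and young livers by edgeR.

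Of 10 potassium channels and cotransporters tested, 2 rose and 1 fell between young and old vehicle livers, beside 10.9% and 8.32% of all genes. Slc12a7, the potassium and chloride cotransporter KCC4, went from 86.2 ± 6.03 CPM in young to 65.8 ± 1.47 CPM in old vehicle livers (-0.39, edgeR adjusted p = 0.000744). It was at 81.3 ± 8.27 CPM in old ouabain livers, 0.30 above vehicle on the log2 scale (adjusted p = 0.0327). That call was lost in 9 of 28 other settings, among them the fits that left out 1 of old vehicle replicates 1 to 3 or of old ouabain replicates 3 to 6. Kcnj10, a channel gene, and Kcne3, a channel subunit gene, rose by log2 0.84 and 1.06 between young and old vehicle livers (edgeR adjusted p = 0.0177 and 0.0457).

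Of 11 tested genes listed as other cation pumps, 2 rose and 4 fell between young and old vehicle livers. These stood again beside 10.9% and 8.32% of all genes. Atp13a3, encoding a polyamine transporter, fell by 0.35 on the log2 scale (edgeR adjusted p = 0.005). It differed by -0.39 between old ouabain and young livers (edgeR adjusted p = 0.0241), where 0.387% of all genes tested were lower. There it alone of the 11 passed, though not without young replicate 3 or 5 or old ouabain replicate 2. Atp2a2, the calcium pump of the endoplasmic reticulum, went from 150 ± 39.9 to 98.4 ± 11.2 CPM (-0.61, adjusted p = 0.00525), while Atp2a3, a related calcium pump known from blood cells, rose by 1.51 (adjusted p = 0.00632). Between ouabain and vehicle 1 passed as higher, beside 0.991% of all genes tested. It was Atp13a1, from 32.6 ± 1.14 to 40.5 ± 5.04 CPM (0.31, edgeR adjusted p = 0.048). Atp13a1 was also among the 4 that fell between young and old vehicle livers. Whether its product moves cations was not tested, so its rise is not read as that of a cation pump. None of the list passed in 20 of 28 other settings, among them the fits without any 1 of old vehicle replicates 1 to 5, old ouabain replicates 3 to 6 and young replicates 3 to 6.

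Between young and old vehicle livers 8.32% of all genes tested fell and 10.9% rose. There 1 fell of 12 genes that regulate the pump or relay ouabain signals. It was the growth factor receptor gene Egfr, from 441 ± 274 to 83.5 ± 32.6 CPM (-2.40, edgeR adjusted p = 0.00109). With old vehicle replicate 1 or 6 left out 2 of the list passed. In old ouabain livers Egfr was at 229 ± 112 CPM, 1.45 above vehicle on the log2 scale (adjusted p = 0.08). None of the 12 passed in the other comparisons, but 1 did for ouabain against vehicle without old ouabain replicate 1, with DESeq2 or with quality weights, and 1 for old ouabain against young without young replicate 1. List medians stayed within -0.17 and 0.07 on the log2 scale in these 4 lists and 3 comparisons, where the medians of all genes tested were -0.01 in each comparison.

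**Figure D5:**
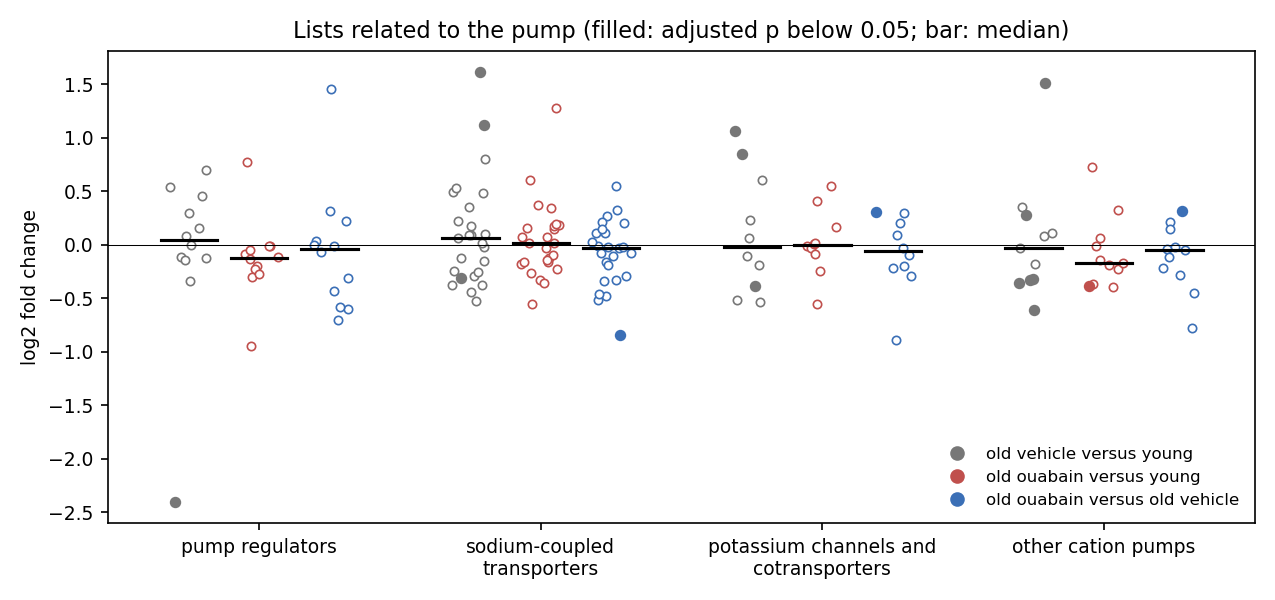
Log2 fold change (vertical axis) of each tested gene of 4 lists related to the pump, for the 3 pairs of groups, with a bar at the median. Filled points have an edgeR adjusted p below 0.05. The lowest is Egfr in old vehicle against young at -2.40.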

How the data were processed

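The submitters' processing notes name TopHat2 2.0.11, the mouse build mm9 and featureCounts. No source used here gives the strand setting, annotation release or handling of shared reads. The authors deposited raw read counts, not normalized, for 37620 Ensembl genes in 18 libraries. Their titles give a group and a replicate number, and they were taken as 1 per mouse. The design text describes 16 old mice, while 12 old libraries were analysed here. The titles do not say that replicates are separate animals, so p-values measure the spread between these samples. Symbols matched 32897 identifiers, and the others held 1.46% of counts. No batch or date is labelled. Libraries of a group differed beyond sampling noise (chi-square per gene 5.31 to 58.1, where 1 is noise).

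Counts were fitted with edgeR 4.0.16 in R 4.3.3 (filterByExpr minimum count 10, TMM, robust quasi-likelihood F-test, two-sided, Benjamini-Hochberg over 14226 genes, threshold 0.05), with all 18 libraries in 1 fit of 3 groups. SE is the fold change over the square root of F. On simulated counts with 100 genes changed 2-fold and 100 changed 4-fold, the fit recovered 91% of the 2-fold genes for old vehicle versus young (3.08% of all calls false), 85% for old ouabain versus old vehicle (2.66%) and 88% for old ouabain versus young (5.58%). Simulated counts varied independently between genes, and only genes above a minimum expected count were changed. No fold below 2 was simulated, so these rates do not cover the smaller subunit differences between the old groups. CPM is mean ± SD. Other settings used limma 3.58.1, DESeq2 1.42.0 and sva 3.50.0. Members, lists and settings were chosen with earlier results of these data known. Genes named from each list were up to 3 past the threshold per comparison, by adjusted p. The nearest genes needed a mean log2 CPM of at least 2 (prior count 2) and excluded predicted genes, pseudogenes, Mup and antigen receptor segments. Results for some related genes are not reported here.

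Replicate numbers recur in each group, but the labels do not say that they pair mice. Promoter sequences are from RefSeq.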

Additional observations from a re-analysis of the deposited data

Results flagged for a closer look

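Each subunit gene, 4 ratios of a pair of them and the ratio of Fxyd5 to Lcp1 were searched in each group of 6 for 1 library set apart from the others by a gap of more than 62.5% of the whole range. Of 33 such searches 8 found a library, and chance finds one in about 1 of 20 independent groups. These searches were not independent, since 3 of the 8 use the same Fxyd5 value and 2 are of genes with at most 11 counts, so the number found is not set against chance. Old ouabain replicate 2 was found for Fxyd5 (10.98 CPM, others 6.04 to 6.39), for Atp1b1 (51.3 CPM, others 60.8 to 66.0), and for the log2 ratios of Fxyd5 counts to Atp1b1 counts (-2.22, others -3.41 to -3.27) and to Lcp1 counts (-2.75, others -3.73 to -3.60). Old ouabain replicate 1 was found for Atp1b3 (97.9 CPM, others 28.6 to 48.4). Young replicate 4 was found for Atp1b3 (34.2 CPM, others 30.1 to 31.1). Old vehicle replicate 1 was found for Atp1b2 (0.905 CPM, or 9 counts, others 0 to 0.308 CPM) and old vehicle replicate 2 for Fxyd2 (1.03 CPM, or 11 counts, others 0 to 0.302 CPM).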

How the results depend on the processing

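Fxyd5 passed against young in both old groups in each of 18 fits that left out 1 library and in each of 10 other settings. Atp1b1 in old vehicle versus young passed in 16 of 18 and 8 of 10. Subunit genes changed numbered 2 for old vehicle versus young (1 to 3 without 1 library, 1 with both old vehicle replicate 4 and the shallow old ouabain replicate 5 left out). They numbered 0 for old ouabain versus old vehicle (0 to 1 without 1 library, 1 each with DESeq2, quality weights and 1 surrogate variable) and 1 for old ouabain versus young (1 to 2 without 1 library, 2 with quality weights). Atp1b3 in old ouabain versus old vehicle changed sign with limma voom (-0.038), with quality weights (-0.11) and with the replicate block (-0.011), and ran from -0.31 to 0.17 without 1 library; the cause was not tested.

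Over all genes, 262 changed between ouabain and vehicle, against 603 with DESeq2, 1002 with quality weights and 85 with the same pair of libraries left out. Without 1 library they ranged from 69 (old ouabain replicate 6) to 642 (old vehicle replicate 6). Counts more than 1.5 times off also came without old vehicle replicates 1 (152), 2 (139), 3 (124) and 4 (172) and old ouabain replicates 1 (552), 3 (79), 4 (76) and 5 (130). Between old ouabain and young 160 changed, against 466 with DESeq2, 532 with quality weights, 333 in the fit of 12 libraries and 103 without the same pair of libraries. Without 1 library they ranged from 51 (old ouabain replicate 2) to 612 (young replicate 1), with 71, 76, 64 and 96 without young replicates 3 to 6 and 77 without old ouabain replicate 5. For old vehicle versus young, 2733 changed, or 2085 to 3061 without 1 library.

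No shared pattern by replicate number was seen: deviations of same-numbered libraries correlated at -0.14 to 0.16 over genes, and 3 of 18 libraries matched their own number best. Low correlations cannot tell whether the mice were paired in the design. With the replicate block 241, 2522 and 71 genes changed for old ouabain versus old vehicle, old vehicle versus young and old ouabain versus young. It changed no call of a subunit gene. Atp1b2 and Fxyd2 were limited by depth.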
